A study of Mus musculus with 6 samples.

Results

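The growth hormone and insulin-like growth factor (IGF) axis was followed through 10 genes, chosen by symbol from the 29667 genes of a liver read-count table: the growth hormone receptor Ghr, its transcription factor Stat5b, the feedback inhibitor Socs2, the hormone Igf1, the circulating carrier subunit Igfals, the binding proteins Igfbp1, Igfbp2, Igfbp3 and Igfbp4, and the receptor Igf1r. All 10 were among the 14843 genes with enough reads to be tested. The livers came from 3 Prox1-cKO mice (Alb-Cre; Prox1f/f) and 3 WT mice (Prox1f/f), and polyadenylated RNA was sequenced. The question was which genes respond when hepatocytes lose PROX1, a homeobox transcriptional repressor. Both genotypes carried the floxed Prox1 allele, and only Prox1-cKO mice carried Cre. The albumin promoter restricts Cre to cells of the hepatocyte lineage. Mice of the study had chow and water freely available, while the age and treatment of these animals, the hour of sampling and any fast before it are not stated in the sources used here, and the replicates are described only as biological.

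Growth hormone from the pituitary binds GHR on hepatocytes and activates the kinase JAK2, which phosphorylates STAT5B. STAT5B then switches on Igf1 and Igfals, and also Socs2 and Cish, whose products shut the receptor off again. Liver-made IGF1 circulates bound to IGF binding proteins, most of it in a complex with IGFBP3 and the acid-labile subunit encoded by Igfals. Growth hormone is released in pulses, whose timing differs between male and female rodents and sets the sex bias of many liver genes.

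Reads assigned to genes numbered 19036950 to 20537091 in Prox1-cKO libraries and 18066205 to 19921674 in WT libraries. Levels are given as CPM, the read counts of a gene relative to all reads of its library. They were scaled by the trimmed mean of M-values (TMM), with factors of 0.8417 to 0.8926 in Prox1-cKO and 1.091 to 1.195 in WT. Prox1 itself stood at 211.7, 179.4 and 172.4 CPM in Prox1-cKO livers, against 558.3, 728.8 and 837.1 CPM in WT livers, which is −1.91 ± 0.20 as a log2 fold change (SE, adjusted p = 6.05e-04). Adjusted p-values throughout are from edgeR's quasi-likelihood test with Benjamini-Hochberg adjustment over all genes tested. WT replicate 3 lay apart from the other WT libraries, and the axis genes whose sign turned without it (Ghr and Stat5b) are given both ways. Summed marker levels also differed. The hepatocyte markers (14 listed, 13 tested) gave 128300 to 153700 CPM in Prox1-cKO and 79350 to 90530 CPM in WT. Of these 8 were higher and 1 lower (Trf, whose exons largely overlap another gene). Bile duct markers gave 34.96 to 57.17 CPM in Prox1-cKO against 122.6 to 198.9 CPM in WT (5 of 7 tested lower), and stellate cell and fibroblast markers 520.2 to 588.1 CPM in Prox1-cKO against 668.4 to 779.4 CPM in WT (6 of 11 lower). Kupffer cell and macrophage markers stood at 570.5 to 773.4 CPM in Prox1-cKO against 645.1 to 1624 CPM in WT (8 of 10 lower) and sinusoidal endothelial markers at 484 to 758.3 against 609 to 780 CPM (2 of 11 lower). Markers of dividing cells gave 13.92 to 17.18 CPM in Prox1-cKO and 48.89 to 128 CPM in WT (7 of 8 lower). These marker counts stand beside 14.1% of all genes tested called higher and 20.2% called lower. Hepatocyte markers thus took a larger part of the Prox1-cKO libraries, and the part of this shift in the results on the axis genes was not tested. With whole-liver RNA, fewer cells of a type and less RNA per cell cannot be told apart.

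Of the 10 axis genes, 3 were higher in Prox1-cKO livers (Igf1, Igfbp2 and Igfbp4), 1 was lower (Socs2) and 6 did not pass the test at an adjusted p of 0.05. Over all genes tested, 14.1% were called higher, 20.2% lower and 34.3% in either direction, so that the share of axis genes called was near that of the transcriptome. The log2 fold changes of the 10 genes had a median of −0.12, against −0.02 over all genes tested. Prox1-cKO and WT libraries did not overlap for 4 of the 10 genes, and the same held for 49.9% of all genes tested.

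**Figure D1:**
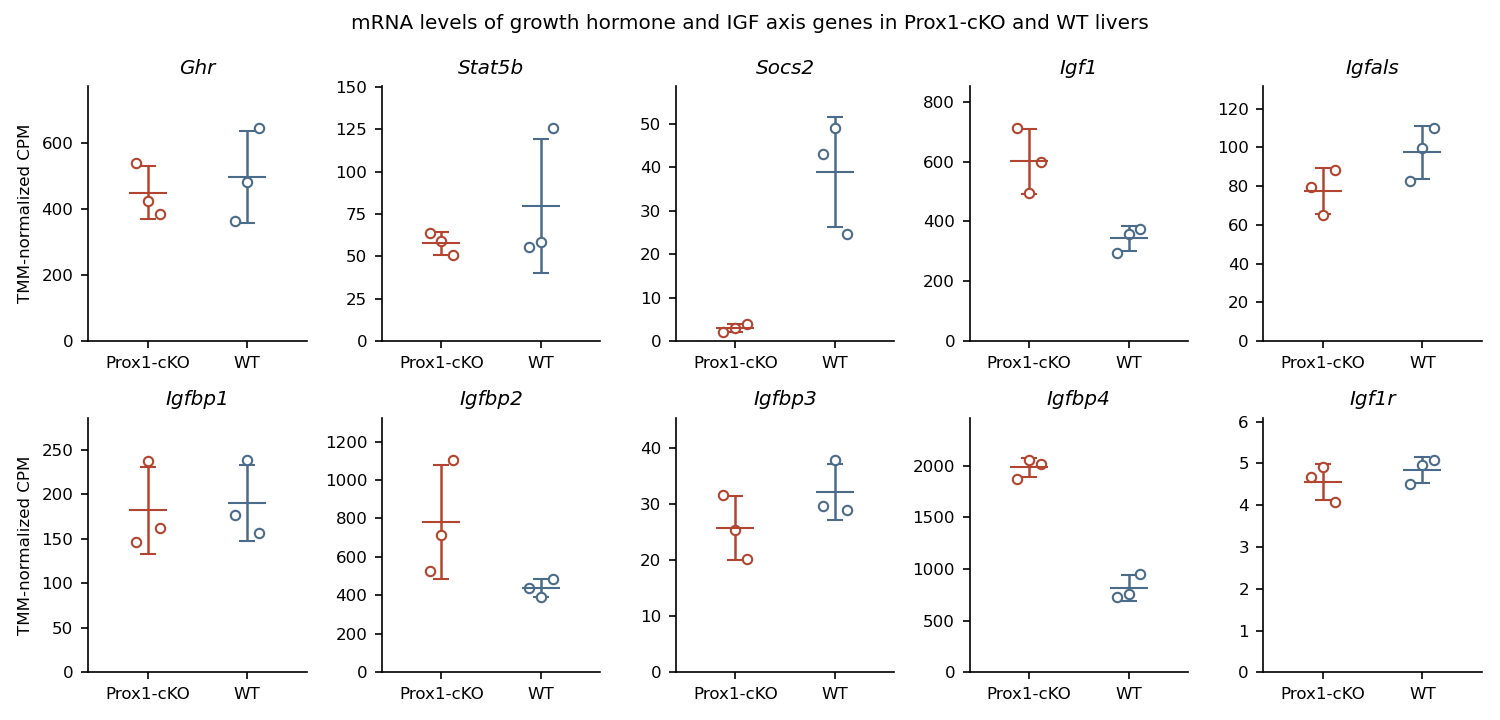
TMM-normalised CPM of the 10 axis genes in each library, with Prox1-cKO livers on the left and WT livers on the right of each panel; points are the 3 libraries of a genotype, the long bar is their mean and the whiskers are 1 SD. Socs2 sits at 1.999 to 3.85 CPM in Prox1-cKO livers and at 24.65 to 48.99 CPM in WT livers, while the points of Ghr, Stat5b, Igfals, Igfbp1, Igfbp3 and Igf1r overlap between the genotypes.

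Promoter windows from RefSeq (GRCm38.p6, 250 bases before to 50 after each annotated start) were found for 9 of the 10 axis genes (all but Socs2), 14 windows in all, and for Cish, a further inhibitor of the receptor. They were searched on both strands for the STAT5 motif TTCNNNGAA, which reads the same on both strands and is held by 8.3% of all 32851 windows, for the insulin response motif CAAAACA (6.28%) and for the GC box GGGCGG (35.7%). Of the axis genes, Igfals alone held the STAT5 motif, in 2 of its 3 windows, Igfbp1 alone held CAAAACA, and 5 held a GC box. The windows of Igfals and Cish are given because both genes are known STAT5 targets and only Cish passed the test, and that of Igfbp1 because it holds the insulin response motif. Each is shown 5′ to 3′ on the plus strand up to 30 bases after the start, with the motif in capitals.
Igfals, chr17:24877594-24877873: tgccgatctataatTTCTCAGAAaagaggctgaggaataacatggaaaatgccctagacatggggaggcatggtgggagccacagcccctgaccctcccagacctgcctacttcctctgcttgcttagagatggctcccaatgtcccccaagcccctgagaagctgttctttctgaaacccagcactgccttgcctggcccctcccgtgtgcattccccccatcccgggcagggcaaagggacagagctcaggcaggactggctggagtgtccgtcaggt
Cish, chr9:107296409-107296688: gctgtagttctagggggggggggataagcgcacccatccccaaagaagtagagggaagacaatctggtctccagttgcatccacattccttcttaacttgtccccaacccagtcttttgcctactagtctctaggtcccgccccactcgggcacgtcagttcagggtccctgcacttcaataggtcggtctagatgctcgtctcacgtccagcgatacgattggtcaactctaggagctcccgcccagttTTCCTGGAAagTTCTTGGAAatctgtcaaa
Igfbp1, chr11:7197537-7197816: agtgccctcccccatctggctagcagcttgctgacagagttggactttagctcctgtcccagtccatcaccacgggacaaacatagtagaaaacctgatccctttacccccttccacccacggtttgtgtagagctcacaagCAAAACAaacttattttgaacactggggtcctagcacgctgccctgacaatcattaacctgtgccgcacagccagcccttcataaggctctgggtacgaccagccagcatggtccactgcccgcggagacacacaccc

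In Cish the 2 matches began 1 and 12 bases from the start, in Igfals the match began at base −236, and in Igfbp1 at base −108, counted from the annotated start. The windows of Igf1, Igfbp2, Igfbp3 and Igfbp4 held no STAT5 motif, which says only that these letters are not in those windows. A match is a run of letters, not a measured binding site.

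The receptor and its transcription factor did not pass the test. Ghr, which encodes the growth hormone receptor (GRCm38 chr15:3317760-3583492, minus strand), stood at 539.1, 422.5 and 383.8 CPM in Prox1-cKO livers, against 364.2, 479.6 and 642.8 CPM in WT livers. The libraries of the genotypes were interleaved, with the highest and the lowest of the 6 both in WT. The log2 fold change was −0.14 (95% interval −0.70 to 0.41, adjusted p = 0.677), and 0.11 without WT replicate 3. Stat5b, the main STAT downstream of GHR in liver (chr11:100780731-100850724, minus strand), stood at 63.59, 58.86 and 50.46 CPM in Prox1-cKO livers, against 55.21, 58.62 and 125.4 CPM in WT livers. WT replicate 3 stood above the other 5 libraries, and the log2 fold change of −0.47 (95% interval −1.17 to 0.24, adjusted p = 0.269) became 0.04 without it.

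Socs2 was the axis gene with the largest change. Its product is a STAT5-induced inhibitor that targets GHR for degradation, and mice without it overgrow. Socs2 (chr10:95385362-95417180, minus strand) stood at 1.999, 3.003 and 3.845 CPM in Prox1-cKO livers, against 43.17, 48.99 and 24.65 CPM in WT livers. Every Prox1-cKO library was below every WT library, and the means were 2.95 ± 0.92 CPM and 38.9 ± 12.7 CPM (SD, n = 3 each). It fell by 3.72 on the log2 scale (SE 0.33, 95% interval −4.47 to −2.97, adjusted p = 2.99e-04), which is 13.2-fold lower, on 152 reads in Prox1-cKO and 2628 reads in WT. Of the genes tested, 1.70% (252 genes) had a log2 fold change below that of Socs2. The call held under every scaling, filter and tool tried and without any 1 library, with a log2 fold change between −3.94 and −3.50 when libraries were left out in turn.

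The other brakes on growth hormone signalling were read from a list of 9 genes, of which Cish and Socs1 were lower and none was higher. Of all genes tested, 20.2% were called lower and 14.1% higher, so that the share of brakes called lower was near that of the transcriptome. Cish, a SOCS family inhibitor that is also a direct STAT5 target and holds 2 STAT5 motifs at its start (above), stood at 2.87, 1.09 and 1.78 CPM in Prox1-cKO livers, against 15.04, 13.17 and 3.51 CPM in WT livers. The genotypes did not overlap, but WT replicate 3 was near the Prox1-cKO libraries. The log2 fold change was −2.48 ± 0.57 (SE, adjusted p = 0.0128). Leaving out Prox1-cKO replicate 2 (adjusted p = 0.0527) or 3 (adjusted p = 0.0509) ended the call. Cish also shares exon sequence with antisense gene models on the opposite strand, whose reads cannot be told apart from its own without strand information. Socs1, an inhibitor of JAK kinases that also responds to cytokines, was at 0.51 ± 0.08 CPM in Prox1-cKO and 1.30 ± 0.56 CPM in WT (SD, n = 3 each), with a log2 fold change of −1.35 (adjusted p = 0.0410) on 26 and 88 reads. Its call was lost with DESeq2 (adjusted p = 0.0615) and with limma (adjusted p = 0.0605), and without each library in turn other than WT replicate 3. Without WT replicate 3, 1 brake was called higher and 3 lower. The 9 brakes had a median log2 fold change of −0.17, against −0.02 over all genes tested.

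The receptor-proximal list of 9 genes held 2 that were higher and 2 that were lower (14.1% and 20.2% over all genes tested), with changes under 2-fold. Jak2, the kinase bound to GHR, stood at 21.99, 19.55 and 15.2 CPM in Prox1-cKO livers, against 27.6, 25.34 and 30.39 CPM in WT livers, with no overlap and a log2 fold change of −0.55 ± 0.16 (SE, adjusted p = 0.0301). Adam17, the protease that sheds the GHR ectodomain, had the same size of fall at −0.56 (adjusted p = 0.0274). Prlr, the receptor for prolactin and close relative of GHR, was higher by 0.52 on the log2 scale (adjusted p = 0.0193), and Sh2b1, an adaptor that enhances JAK2 activity, by 0.43 (adjusted p = 0.0405). None of these 4 calls was stable. Leaving out 1 library ended that of Jak2 for 5 of the 6 libraries, those of Adam17 and Sh2b1 for 4 and that of Prlr for 3. The correction for exon length and GC content ended the calls of Jak2 (adjusted p = 0.0690) and Adam17 (0.0808), and library totals alone those of Prlr (0.11 on the log2 scale, adjusted p = 0.556) and Sh2b1 (0.02, adjusted p = 0.923). Stat5a, the second STAT5 gene, stood at 14.2 ± 2.51 CPM in Prox1-cKO and 22.2 ± 11.6 CPM in WT (SD, n = 3 each; log2 fold change −0.64, adjusted p = 0.172), with WT replicate 3 again the highest library and a log2 fold change of −0.12 without it. Stat5a passed as lower with library totals alone (−1.03, adjusted p = 0.0270).

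Igf1 was higher in Prox1-cKO livers. Igf1 encodes the hormone that carries much of the growth signal from liver to tissues (chr10:87858265-87937042, plus strand). It stood at 710.9, 494.5 and 597.4 CPM in Prox1-cKO livers, against 295.7, 358.6 and 375 CPM in WT livers. The lowest Prox1-cKO library was above the highest WT library, and the means were 601 ± 108 CPM and 343 ± 41.9 CPM (SD, n = 3 each). The log2 fold change was 0.81 ± 0.19 (SE, 95% interval 0.37 to 1.25, adjusted p = 0.0148), or 1.75-fold. The call was lost when libraries were scaled by their totals alone, which lowers the log2 fold change of the median gene by 0.41 (Igf1 at 0.40, adjusted p = 0.0934). It was also lost when WT replicate 1 was left out (0.72, adjusted p = 0.0522).

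Igfals did not pass the test. It encodes the acid-labile subunit that stabilises IGF1 in the circulation (chr17:24865997-24882010, plus strand). It stood at 79.52, 64.98 and 88.49 CPM in Prox1-cKO livers, against 82.68, 99.7 and 109.8 CPM in WT livers. Only the highest Prox1-cKO library reached into the WT range. The log2 fold change was −0.33 (95% interval −0.70 to 0.05, adjusted p = 0.157), and with library totals alone Igfals passed as lower (−0.74, adjusted p = 0.00562).

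Ratios of genes within a library do not depend on the scaling between libraries. The log2 ratio of Igf1 to Ghr reads was 0.40, 0.23 and 0.64 in Prox1-cKO livers, against −0.30, −0.42 and −0.78 in WT livers. That of Igf1 to Igfals was 3.16, 2.93 and 2.76 in Prox1-cKO, against 1.84, 1.85 and 1.77 in WT, a difference in means of 1.13. That of Socs2 to Ghr was −8.07, −7.14 and −6.64 in Prox1-cKO, against −3.08, −3.29 and −4.71 in WT, a difference of −3.59. In all 3 ratios the genotypes were apart, with more Igf1 and less Socs2 for each Ghr read in Prox1-cKO livers. Of 11 ratios computed, 9 did not overlap, each with p = 0.1 by the exact two-sided permutation test, which is the smallest p that 3 against 3 libraries allow (0.122 after Benjamini-Hochberg adjustment over the 11). The exceptions were Igf1 to Igfbp2 (exact permutation p = 0.9) and Igf1 to Igfbp1 (exact permutation p = 0.2). All ratios but Socs2 to Ghr had Igf1 as the numerator. The ratios are thus not independent of each other or of the results on Igf1 and Socs2. Among single genes tested, 49.9% did not overlap between the genotypes.

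The genes whose pattern over the 6 libraries was most like that of Igf1, by the root mean square difference of log2 CPM after centring, were Mccc2 (0.106), which encodes a subunit of the leucine-degrading methylcrotonyl-CoA carboxylase, C8g (0.108), a chain of complement component C8, and Slc35g1 (0.111), a membrane transporter family gene. Those nearest to Ghr were Pigr (0.0599), the polymeric immunoglobulin receptor, Cyp4v3 (0.0947), a fatty acid hydroxylase, and Cdc14b (0.0957), a phosphatase. Pigr followed Ghr closely in every library, at 1855, 1435 and 1317 CPM in Prox1-cKO livers and 1126, 1530 and 2197 CPM in WT livers.

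Igfbp4 and Igfbp2 carried the rises among the binding proteins. Igfbp4, whose product binds IGF1 and releases it on cleavage by the protease PAPP-A (chr11:99041244-99054392, plus strand), stood at 1876, 2056 and 2018 CPM in Prox1-cKO livers, against 731.4, 759.8 and 956.6 CPM in WT livers. The Prox1-cKO libraries were close to each other and all far above the WT libraries. The log2 fold change was 1.28 ± 0.19 (SE, 95% interval 0.85 to 1.72, adjusted p = 0.00229), or 2.43-fold, and the call held under every alternative tried, with 0.88 under library totals alone and 1.21 to 1.43 when libraries were left out in turn.

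Igfbp2, the binding protein that predominates when growth hormone or insulin action is low (chr1:72824503-72852474, plus strand), stood at 525.7, 716.2 and 1104 CPM in Prox1-cKO livers, against 439.2, 391.9 and 486.3 CPM in WT livers. The genotypes did not overlap, although the lowest Prox1-cKO library was close to the highest WT library and Prox1-cKO replicate 3 was more than 2-fold above replicate 1. The log2 fold change was 0.83 ± 0.27 (SE, 95% interval 0.20 to 1.46, adjusted p = 0.0473), or 1.78-fold. Of the 4 calls this one was lost most often. It did not hold with library totals alone (0.43, adjusted p = 0.216), with a filter of 10 reads in every library (adjusted p = 0.0584), and with limma (adjusted p = 0.0562). It was also lost when WT replicate 1 (adjusted p = 0.105), WT replicate 2 (0.135), Prox1-cKO replicate 2 (0.0938) or Prox1-cKO replicate 3 (0.118, with a log2 fold change of 0.51) was left out.

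Igfbp1 and Igfbp3, neighbours on chromosome 11, did not pass. Igfbp1, which insulin represses and fasting raises (chr11:7197782-7202546, plus strand), stood at 146.3, 237.5 and 162 CPM in Prox1-cKO livers, against 177.1, 238.6 and 156.3 CPM in WT livers. The spread within each genotype was larger than the difference between them (log2 fold change −0.07, 95% interval −0.61 to 0.47, adjusted p = 0.844). Igfbp3, whose product carries most circulating IGF1 (chr11:7206086-7213923, minus strand), stood at 31.67, 25.39 and 20.23 CPM in Prox1-cKO livers, against 29.72, 37.83 and 28.92 CPM in WT livers, with a log2 fold change of −0.32 (95% interval −0.75 to 0.11, adjusted p = 0.219). In liver Igfbp3 is transcribed mainly outside hepatocytes, and the part of the cell marker shift in its values was not tested.

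Igf1r, the receptor for IGF1, is a gene that adult hepatocytes express little (chr7:67952827-68233668, plus strand). It stood at 4.69, 4.91 and 4.08 CPM in Prox1-cKO livers, against 4.498, 4.97 and 5.08 CPM in WT livers, from 234 and 320 reads. The values overlapped and the log2 fold change was −0.09 (95% interval −0.50 to 0.33, adjusted p = 0.736).

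**Figure D2:**
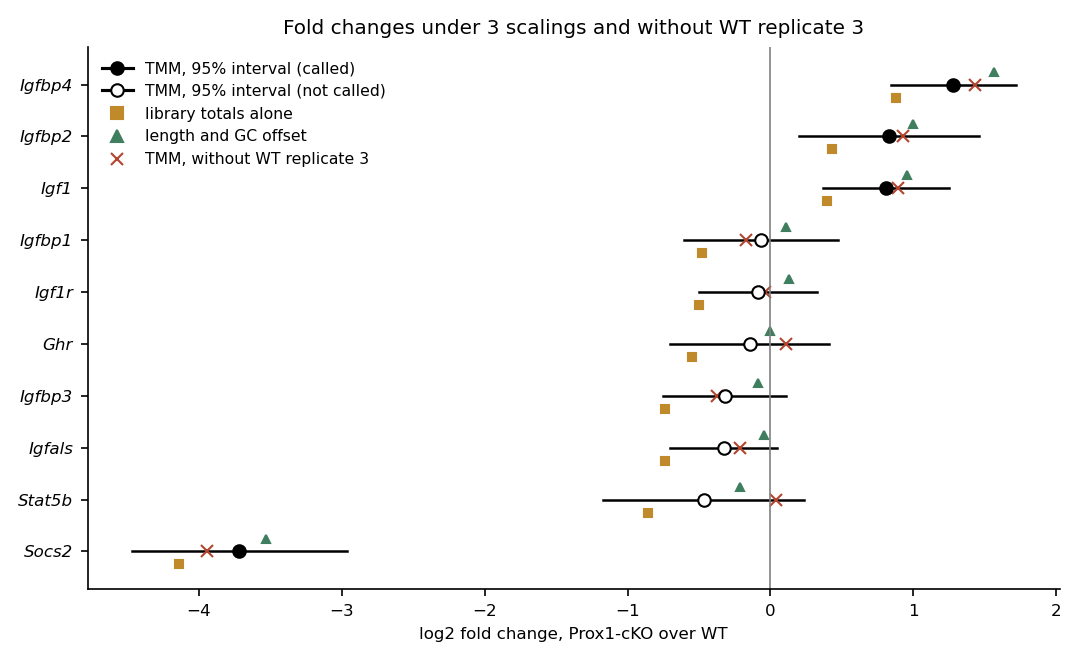
Log2 fold change, Prox1-cKO over WT, of each axis gene (rows); circles with lines are the TMM estimate and its 95% interval (filled where the adjusted p is under 0.05), squares the estimate with library totals alone, triangles that with a correction for exon length and GC content and crosses that without WT replicate 3. Socs2 lies left of −3 and Igfbp4 right of 0.8 in every setting shown, whereas Ghr, Stat5b, Igfbp1 and Igf1r cross 0 in at least 1 of them.

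Per kb of exon, the order of the levels was headed by Igfbp4 in Prox1-cKO livers (449 ± 21.5 CPM per kb), followed by Igfbp2 (423 ± 160), Igfbp1 (119 ± 32.0), Igf1 (60.7 ± 10.9), Ghr (49.5 ± 8.93), Igfals (24.5 ± 3.75), Stat5b (10.4 ± 1.201), Igfbp3 (8.23 ± 1.83), Socs2 (0.31 ± 0.10) and Igf1r (0.27 ± 0.03; SD, n = 3 each). The ranges of the neighbours Igfbp4 and Igfbp2, Igf1 and Ghr, Stat5b and Igfbp3, and Socs2 and Igf1r overlapped there. In WT livers the order was Igfbp2 (238 ± 25.6 CPM per kb), Igfbp4 (185 ± 27.8), Igfbp1 (125 ± 28.1), Ghr (54.7 ± 15.5), Igf1 (34.6 ± 4.23), Igfals (30.8 ± 4.33), Stat5b (14.4 ± 7.15), Igfbp3 (10.3 ± 1.58), Socs2 (4.09 ± 1.33) and Igf1r (0.29 ± 0.02; SD, n = 3 each). There the overlapping neighbours were Igfbp2 and Igfbp4, Igf1 and Igfals, and Stat5b and Igfbp3. On this length Socs2 stood clear of Igf1r in WT livers and came down among its values in Prox1-cKO livers. The length is the union of all annotated exons, which exceeds the longest transcript unequally. It is 9531 against 4242 bases for Socs2, 16791 against 11409 for Igf1r, 9053 against 4175 for Ghr and 9904 against 7052 for Igf1. The order and separation of neighbours, Socs2 and Igf1r included, thus depend on the length chosen.

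The make-up of the binding protein mRNAs was read within each library as the share of Igfbp1 to Igfbp7 reads per kb of exon. Igfbp4 made up 49.5%, 43.6% and 37.7% in Prox1-cKO livers, against 27.7%, 27.1% and 31.9% in WT livers, a difference in means of 14.7 percentage points. Igfbp1 made up 11.5% ± 2.92 in Prox1-cKO and 19.7% ± 4.76 in WT, and Igfbp7, a distant relative that binds IGFs weakly and is made mainly by vascular cells, 4.41% ± 0.62 and 12.3% ± 0.72 (SD, n = 3 each). The libraries of the genotypes did not overlap for the shares of Igfbp1, Igfbp3, Igfbp4 and Igfbp7. Each had p = 0.1 by the exact two-sided permutation test, the smallest the design allows. They overlapped for Igfbp5, Igfbp6 and Igfbp2 (39.6% ± 8.55 in Prox1-cKO, 37.3% ± 3.42 in WT, exact permutation p = 0.9 for Igfbp2). Such a lack of overlap was also found for 49.9% of single genes tested. In these libraries the binding protein mRNA held a larger share of Igfbp4 and smaller shares of Igfbp1 and Igfbp7 in Prox1-cKO than in WT livers. With 3 libraries a genotype no exact test could reach 0.05. The shares of a library add up to a fixed total, so a smaller share need not mean a lower level. By its own level Igfbp1 did not pass (log2 fold change −0.07, adjusted p = 0.844), whereas Igfbp7 was lower (−0.79, adjusted p = 0.00442).

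**Figure D3:**
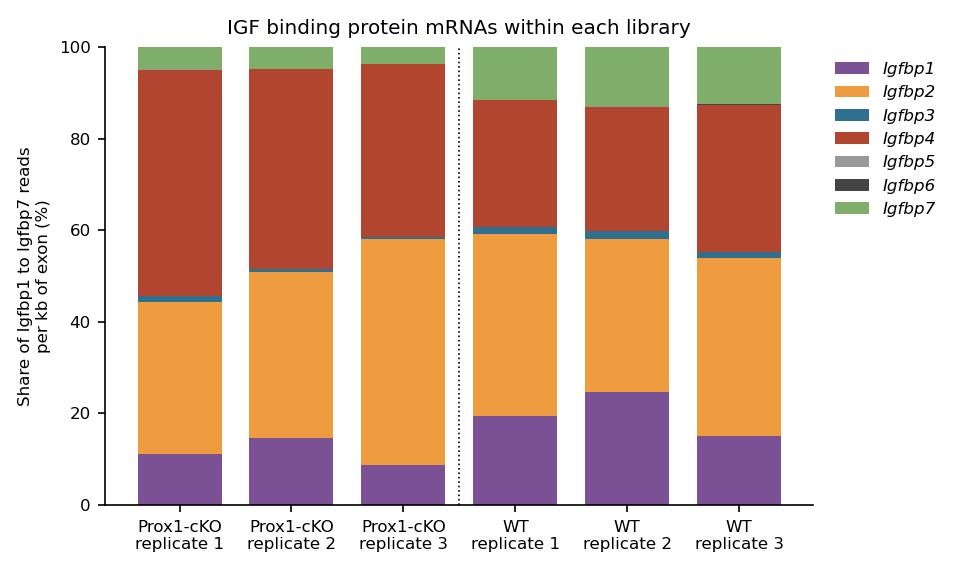
Share of Igfbp1 to Igfbp7 reads per kb of exon (%), 1 stacked bar for each library, with Prox1-cKO livers left of the dotted line and WT livers right of it. Igfbp4 takes 37.7% to 49.5% of each Prox1-cKO bar and 27.1% to 31.9% of each WT bar; Igfbp5 and Igfbp6 are too small to see.

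The other ligands, receptors and binding proteins of the IGF family (8 listed, 4 tested) had 1 call, beside 34.3% of all genes tested called in either direction. Igfbp7 was at 55.0 ± 5.76 CPM in Prox1-cKO and 94.9 ± 10.3 CPM in WT (SD, n = 3 each), or −0.79 on the log2 fold change scale (adjusted p = 0.00442). Insr, the insulin receptor, stood at 221.6, 226.8 and 177.8 CPM in Prox1-cKO, against 140.1, 154.2 and 198.8 CPM in WT (0.34, adjusted p = 0.172). Insr passed as higher without WT replicate 3 (0.52, adjusted p = 0.0352) and with the correction for exon length and GC content (0.54, adjusted p = 0.0258). Igf2r, which clears IGF2, was at 67.9 ± 3.86 CPM in Prox1-cKO and 68.0 ± 15.4 CPM in WT (SD, n = 3 each; adjusted p = 0.992). Igfbp5 was at 4.47 ± 2.49 CPM in Prox1-cKO and 5.50 ± 1.74 CPM in WT (adjusted p = 0.626). Igf2, a fetal growth factor silenced in the adult mouse liver, had 0 reads in Prox1-cKO libraries, where a count of 0 allows up to 0.164 to 0.187 CPM, and 1 read in all WT libraries together. In the annotation used here, 3596 of its 5723 exon bases are shared with the gene model Gm49394 on the same strand. Reads on shared bases may not be counted for Igf2, so that limit may not bound its level. Igfbp6 had 19 reads in Prox1-cKO and 20 in WT, and neither Igf2 nor Igfbp6 was tested.

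Downstream of the receptors, 1 of 8 substrates and adaptors tested was higher and 1 lower, beside 14.1% and 20.2% of all genes tested. Grb10, an adaptor that inhibits both the insulin and the IGF1 receptor, stood at 4.498, 4.81 and 3.25 CPM in Prox1-cKO livers, against 12.96, 18.69 and 14.38 CPM in WT livers. The genotypes were well apart, with a log2 fold change of −1.87 ± 0.22 (SE, adjusted p = 9.09e-04). Grb14, the related inhibitor that predominates in liver, was higher at 58.5 ± 5.51 CPM in Prox1-cKO against 38.2 ± 8.57 CPM in WT (SD, n = 3 each; 0.62, adjusted p = 0.0266), a call lost without any 1 of 4 of the libraries and with library totals alone (0.22, adjusted p = 0.282). Irs1 (17.2 ± 0.34 CPM in Prox1-cKO, 18.7 ± 5.47 CPM in WT, adjusted p = 0.657) and Irs2 (33.9 ± 10.5 and 40.8 ± 5.0 CPM, adjusted p = 0.370), the main docking proteins, did not pass. With library totals alone both passed as lower (Irs1 at −0.52, adjusted p = 0.0435, and Irs2 at −0.68, adjusted p = 0.0482).

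Of the proteases that cleave IGF binding proteins and their inhibitors (14 listed, 9 tested), 6 were lower in Prox1-cKO and none higher (7 and 1 without WT replicate 3). The shares over all genes tested were 20.2% lower and 14.1% higher. The 6 were at low levels. Plat, the tissue plasminogen activator, stood at 0.31 ± 0.09 CPM in Prox1-cKO and 2.35 ± 0.60 CPM in WT (log2 fold change −2.88, adjusted p = 0.00135). Adam12, a metalloprotease of mesenchymal cells, was at 0.28 ± 0.10 and 1.68 ± 0.71 CPM (−2.58, adjusted p = 0.00590; SD, n = 3 each). The others lower were Mmp2, Plau, Pappa (6 reads in Prox1-cKO, 32 in WT) and Pappa2 (0 and 49 reads). In the same libraries 6 of 11 stellate cell and fibroblast markers were lower, and the part of that shift in these falls was not tested. Plg, which encodes plasminogen and is the most abundant gene of the list, went the other way without passing. It was at 2618 ± 422 CPM in Prox1-cKO and 1693 ± 296 CPM in WT (SD, n = 3 each; 0.63, adjusted p = 0.0610), with no overlap. The summed level of the list was 2292 to 3101 CPM in Prox1-cKO and 1414 to 2006 CPM in WT. Of the IGF2 mRNA binding proteins, Igf2bp2 was lower (1.10 ± 0.46 CPM in Prox1-cKO, 2.42 ± 0.36 CPM in WT; SD, n = 3 each; −1.12, adjusted p = 0.0377), a call lost without any 1 of 4 of the libraries.

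The sex-biased liver genes that follow the growth hormone rhythm were examined as a readout of the same axis. Y-linked genes were expressed in all 6 livers (Ddx3y at 75.5 to 106 CPM) and Xist was under 0.3 CPM in each. Of 17 male-biased genes 1 was higher and 5 were lower in Prox1-cKO, with a median log2 fold change of 0.62, and of 17 female-biased genes tested 4 were higher and 5 lower, with a median of −0.78. These counts rest on libraries that differed widely within each genotype. In WT, 15 of the 17 male-biased genes were highest in replicate 3 and 12 of the 17 female-biased genes lowest there. For all 14843 genes tested, 5698 were highest and 5916 lowest in WT replicate 3. Among the male-biased genes 9 varied over 3-fold within WT and 5 within Prox1-cKO, and among the 17 female-biased genes 8 and 6. None of the 10 axis genes varied so widely in either genotype. Of all 14843 genes tested, 833 did so within WT and 817 within Prox1-cKO. Mup7, a major urinary protein with near-identical copies, stood at 5784, 8864 and 8588 CPM in Prox1-cKO livers, against 43.87, 442.3 and 4256 CPM in WT livers. Without WT replicate 3 the number of male-biased genes called higher was 8 rather than 1, and that of female-biased genes called lower 7 rather than 5. That count of female-biased genes was 3 without Prox1-cKO replicate 2 and 3 without Prox1-cKO replicate 3.

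Among the male-biased genes that passed, the cytochrome P450 Cyp2d9 was at 1613 ± 195 CPM in Prox1-cKO and 779 ± 175 CPM in WT (SD, n = 3 each; log2 fold change 1.05, adjusted p = 0.00916). Moxd1, a monooxygenase-like gene, stood at 0.44, 5.08 and 11.89 CPM in Prox1-cKO livers, against 96.66, 186.5 and 447.1 CPM in WT livers (−5.39, adjusted p = 0.00536), with −4.58 without WT replicate 3 and −6.42 without Prox1-cKO replicate 3. Selenbp2, a selenium-binding protein gene with a close copy, was at 121 ± 115 CPM in Prox1-cKO and 835 ± 176 CPM in WT (−2.78, adjusted p = 0.0115), or −3.91 without Prox1-cKO replicate 1. Ugt2b38, Mup20 and Cyp4a12a were also lower. Among the female-biased genes, Cyp2a4, which has a near-identical copy, stood at 0.87, 0.44 and 0.41 CPM in Prox1-cKO livers, against 1231, 322.9 and 24.14 CPM in WT livers (−9.84, adjusted p = 0.00285), or −8.23 without WT replicate 1. A1bg was at 0.26 ± 0.13 CPM in Prox1-cKO and 1.71 ± 1.81 CPM in WT (−2.73, adjusted p = 0.0429), a call that was lost without any 1 of 4 of the libraries, with −1.38 without WT replicate 2. Cyp2b13 (1 read in Prox1-cKO, 39 in WT), Cux2 and Prom1 were also lower, and Cux2 overlapped between the genotypes. Cyp2a22 (14.7 ± 1.91 CPM in Prox1-cKO, 3.51 ± 1.77 CPM in WT, 2.06, adjusted p = 0.00287) and the bile acid hydroxylase Cyp39a1 (46.3 ± 23.5 and 10.1 ± 2.85 CPM, 2.19, adjusted p = 0.00546) were higher, as were Cyp2c40 and Fmo2. The 6 of 17 male-biased and 9 of 17 female-biased genes called stand beside 34.3% of all genes tested.

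**Figure D4:**
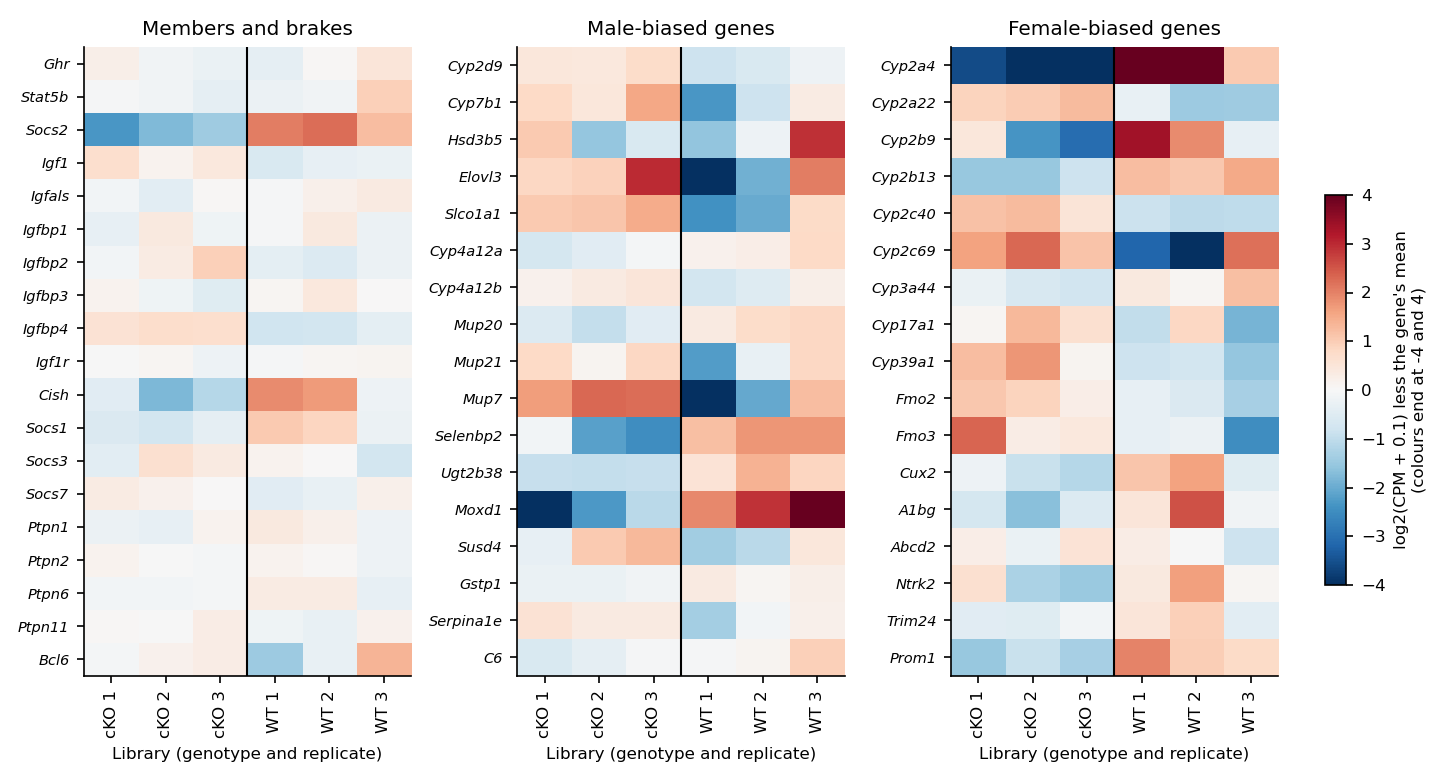
Heat map of log2(CPM + 0.1) less the gene's mean over the 6 libraries (columns, Prox1-cKO left of the line and WT right of it) for the axis genes with the brakes on the receptor, the male-biased and the female-biased genes; red is above and blue below the gene's mean. Socs2 is blue in all 3 Prox1-cKO columns and red in all 3 WT columns, whereas Mup7, Elovl3 and Hsd3b5 change colour within WT, where replicate 3 is the highest.

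Hormonal inputs other than growth hormone also act on Igf1 and the binding proteins. Of 9 insulin- and fasting-regulated genes of the FOXO programme, 4 were higher (Pck1, Klf15, Foxo1 and Ppargc1a) and none lower, beside 14.1% and 20.2% of all genes tested. Pck1, which commits carbon to gluconeogenesis, stood at 6492, 6563 and 4833 CPM in Prox1-cKO livers, against 1095, 1590 and 1777 CPM in WT livers (log2 fold change 2.003, adjusted p = 0.00161). Klf15, a fasting-induced transcription factor, was at 298 ± 30.2 CPM in Prox1-cKO and 118 ± 15.3 CPM in WT (SD, n = 3 each; 1.34, adjusted p = 0.00100). Ppargc1a overlapped between the genotypes, with Prox1-cKO replicate 3 at 16.44 CPM and WT replicate 3 at 17.74 CPM. The number of these FOXO genes called higher ranged over 3 to 6 when libraries were left out in turn. Igfbp1, a FOXO1 target with an insulin response motif in its promoter, had the values given above, with the genotypes overlapping.

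All 7 genes of the FGF21 axis passed, 4 higher (Fgf21, Klb, Fgfr4 and Ppara) and 3 lower (Fgfr1, Fgfr2 and Fgfr3), beside 34.3% of all genes tested. With libraries left out in turn, 3 to 4 were called higher and 2 to 3 lower. Fgf21, a fasting hormone of the liver that dampens growth hormone action in mice, stood at 4.44, 28.39 and 28.69 CPM in Prox1-cKO livers, against 0.62, 5.72 and 1.37 CPM in WT livers. Prox1-cKO replicate 1 was below WT replicate 2, so that the genotypes overlapped, and the log2 fold change was 2.98 ± 0.87 (SE, adjusted p = 0.0318), a call lost without any 1 of 4 of the libraries. Without WT replicate 2 it was 4.38. Ppara, the fatty acid receptor that induces Fgf21, was at 227 ± 33.1 CPM in Prox1-cKO and 91.3 ± 24.9 CPM in WT (1.31, adjusted p = 0.00345). The FGF receptors Fgfr1 (9.20 ± 2.77 CPM in Prox1-cKO, 42.1 ± 4.42 CPM in WT, −2.19) and Fgfr2 (23.8 ± 1.04 and 62.4 ± 9.82 CPM, −1.39) were lower, both with an adjusted p of 5.65e-04 (SD, n = 3 each).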

How the data were processed

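RNA was sequenced from the livers of 3 Prox1-cKO and 3 WT mice. Per the labels and the submitters' processing notes, reads were aligned with HISAT2 2.1.0, counted per gene with HTSeq and compared with DESeq; the notes name the build GRCh38, while the gene identifiers are those of mouse. The deposited values used here are raw read counts per gene; a deposited table that the authors call FPKM has columns that all sum to 1 total and was not used, nor were the authors' columns of fold changes and p-values. Strand handling is not given in the sources used here.

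Counts were filtered with filterByExpr (14843 of 29667 genes kept), scaled by TMM and tested with edgeR 4.0.16 (R 4.3.3), with genotype as the only term and Benjamini-Hochberg adjustment over all genes tested; standard errors were derived from the quasi-likelihood F statistic. Within-library shares and ratios were compared by exact permutation with scipy 1.17.1. Alternatives were relative log expression (RLE) factors, library totals alone, other filters, DESeq2 1.42.0, limma 3.58.1 on log2(CPM + 1), a 2-fold minimum, a smooth offset for exon length and GC content (mgcv 1.9.3; both known for 14833 genes), the replicate number as a block and leaving out each library. The fit was checked on simulated counts with as many rises as falls. That check could not test the scaling between libraries that differ in make-up. Locations and exon lengths are from GENCODE M21 (GRCm38). Replicates differed far beyond sampling noise, so none was counted as a repeat; precision is limited by 3 libraries a genotype, and the limit given for a count of 0 (3 reads) covers counting error only.

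The axis genes and gene lists were chosen with earlier results of these data known. Genes named are Prox1, the 10 axis genes and fixed relatives (Jak2, Stat5a, Cish, Igf2, Igf2r, Insr, Irs1, Irs2, Igfbp5, Igfbp6, Igfbp7). They include up to 2 largest rises and 2 largest falls of each other list, among called genes with at least 1 CPM in the higher genotype. The 3 genes nearest in pattern to Igf1 and to Ghr are also named (at least 5 CPM, leaving out unnamed models and pseudogenes). Other genes given (Mup7, Elovl3, Hsd3b5, Plg, Ddx3y, Xist and further called members of the lists) were named after their values were seen.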

Additional observations from a re-analysis of the deposited data

How the results depend on the processing

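The 4 calls among the axis genes rest unequally on the processing. The number of axis genes higher was 1 with library totals alone and 1 with a 2-fold minimum (3 as reported), and ranged over 1 to 3 when libraries were left out in turn; the number lower was 4 with library totals alone, where Socs2 was joined by Stat5b (−0.86, adjusted p = 0.0346), Igfals and Igfbp3 (−0.74, adjusted p = 0.0158), and stayed at 1 in every leave-one-out fit. Over all genes, 2087 were higher and 2999 lower; library totals alone gave 725 and 6060, a 2-fold minimum gave 735 higher, the length and GC offset gave 4079 higher and raised the median log2 fold change by 0.2, and leaving out libraries gave 1201 to 2604 higher and 1999 to 3468 lower. Signs turned only for uncalled genes: with the offset for Igfbp1 (0.11), Igf1r (0.13), Igf2r (0.24), Irs1 (0.11) and Irs2 (0.031); with library totals for Insr (−0.058); for Igf2r also with RLE (0.011), no filter (0.013), the replicate block (0.019), DESeq2 (0.017) and limma (0.019). With libraries left out in turn the ranges were −0.32 to 0.11 for Ghr, −0.67 to 0.037 for Stat5b, −0.29 to 0.13 for Igfbp1, −0.14 to 0.20 for Igf2r, −0.25 to 0.16 for Irs1 and −0.74 to 0.069 for Igfbp5; single fits gave 0.08 and 0.02 for Igfbp1 (without Prox1-cKO replicates 1 and 3) and 0.05 and 0.01 for Igf2r (the same libraries). The share of Igfbp2 differed by −2.55 points on raw counts, −1.20 points among Igfbp1 to Igfbp4 and −2.58 to 5.47 points with libraries left out; those of Igfbp1 and Igfbp4 kept their direction. The replicate numbers are not said to pair animals and were not taken as pairs. Deviations of same-numbered libraries correlated at 0.148, 0.0561 and 0.155, and those of unlike numbers at −0.158 to 0.0589. Each Prox1-cKO library correlated best with the WT library of its own number. WT replicate 2 was slightly nearer to Prox1-cKO replicate 1 (0.0589) than to replicate 2 (0.0561). Whether the numbers mark pairs or a shared batch was not tested. With the replicate block 2029 genes were higher and 2988 lower, the axis calls were 3 and 1, and among 55 named genes tested 4 calls were lost (Socs1, adjusted p = 0.0658; Igf2bp2, 0.0565; A1bg, 0.0647; and Fcgr2b, an endothelial marker, 0.0791). The cause of these shifts was not tested. Depth limits Socs1, Plat, Adam12, Pappa, Pappa2, Cyp2b13, A1bg, Igf2 and Igfbp6, which had few reads.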
